A study of Homo sapiens with 12 samples.

Results

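The 9 genes described here belong to the p53 pathway: MDM2, MDM4, CDKN1A, CDKN2A, BBC3, BAX, GADD45A, SESN1 and PPM1D. They were listed by name, and all 9 were found among the 19862 protein-coding genes of the RefSeq table for GRCh38.p14. Every peak of 2 deposited ChIP-seq peak lists, in hg38 coordinates, was taken that had a base in 1 of these genes or in the 5 kb on either side. This gave 24 of the 54623 peaks of the RNaseH1 list and 2 of the 1460 peaks of the REXO4 list.

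The study used U2OS, a human osteosarcoma cell line, with a tet-on transgene for a Flag-tagged, nuclease-dead protein. 1 line expressed REXO4-D386A, made from a protein of the RNA exonuclease family, and the other expressed RNaseH1-D210N. RNaseH1 is the enzyme that cuts the RNA strand of RNA:DNA hybrids, and its nuclease-dead form is used to mark R-loops, in which RNA pairs with 1 DNA strand. Each line was grown with doxycycline at 1 µg/ml for about 60 h or without it, and was precipitated with anti-Flag beads, with 2 ChIP libraries and 1 input library per condition and 12 libraries in all. All groups carry 1 of these transgenes, and the labels name no deletion of the cells' own genes. The files used here are 1 peak list per protein with no value per library, so no value below has a replicate error and no difference was tested. The sources used here do not say which libraries entered a list, or whether cells without doxycycline served as its control, so the peaks cannot be set against uninduced cells. The peak names of both lists carry a 2 after the word ChIPseq, and whether this marks replicate 2 alone is not stated, so each fold may rest on 1 ChIP library or on both.

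The transcription factor p53 is held at a low level by the ubiquitin ligase MDM2 and its partner MDM4, and ARF, a product of CDKN2A, blocks MDM2. Active p53 binds response elements near its target genes, which stop the cell cycle (CDKN1A, GADD45A), start apoptosis (BBC3, BAX) or handle oxidative and metabolic stress (SESN1), and it raises its own inhibitors MDM2 and PPM1D. U2OS is known for carrying p53 of normal sequence together with a truncated, overactive PPM1D, and for not expressing the CDKN2A products p16INK4A and ARF. Expression was not measured in the files used here, so none of this was checked.

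The sequences before the starts on which the results turn are given first, from the RefSeq promoter table of GRCh38.p14. MDM2 is shown at both of its promoters, P1 and the p53-responsive P2, because a single RNaseH1 peak covered P1 and ended just before P2. CDKN1A is shown because its start carried the widest peak of the 9 genes. CDKN2A is shown at both starts because the gene is known not to be expressed in this line and the locus held 4 RNaseH1 peaks. Each sequence holds the 250 bases before the start, 5′ to 3′ along the gene. Capitals mark CpG dinucleotides, except at P2, where they mark 2 matches to the p53 response element.
MDM2 before the P1 start, chr12:68807922-68808171, plus strand: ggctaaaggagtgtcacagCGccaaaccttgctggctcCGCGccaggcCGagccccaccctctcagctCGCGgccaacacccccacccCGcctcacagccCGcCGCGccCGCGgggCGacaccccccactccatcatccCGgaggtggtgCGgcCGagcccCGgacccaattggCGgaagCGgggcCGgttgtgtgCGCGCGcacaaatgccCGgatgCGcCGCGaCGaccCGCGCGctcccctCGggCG
MDM2 before the P2 start, chr12:68808767-68809016, plus strand: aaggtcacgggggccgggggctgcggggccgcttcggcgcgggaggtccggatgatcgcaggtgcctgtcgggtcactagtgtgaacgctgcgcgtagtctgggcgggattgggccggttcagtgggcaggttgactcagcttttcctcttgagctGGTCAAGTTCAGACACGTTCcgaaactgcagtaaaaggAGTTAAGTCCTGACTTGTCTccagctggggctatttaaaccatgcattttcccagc
CDKN1A, chr6:36678464-36678713, plus strand: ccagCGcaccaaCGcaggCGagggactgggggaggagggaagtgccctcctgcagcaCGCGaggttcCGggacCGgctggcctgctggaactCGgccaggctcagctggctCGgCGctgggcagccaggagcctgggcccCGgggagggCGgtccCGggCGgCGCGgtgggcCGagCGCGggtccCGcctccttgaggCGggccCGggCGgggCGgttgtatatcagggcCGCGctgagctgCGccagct
CDKN2A before the p16INK4A start, chr9:21974858-21975107, minus strand: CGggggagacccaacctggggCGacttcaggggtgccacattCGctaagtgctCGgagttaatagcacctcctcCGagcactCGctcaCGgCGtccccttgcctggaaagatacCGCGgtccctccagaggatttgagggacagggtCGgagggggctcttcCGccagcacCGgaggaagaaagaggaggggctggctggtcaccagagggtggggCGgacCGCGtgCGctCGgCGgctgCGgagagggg
CDKN2A before the ARF start, chr9:21995325-21995574, minus strand: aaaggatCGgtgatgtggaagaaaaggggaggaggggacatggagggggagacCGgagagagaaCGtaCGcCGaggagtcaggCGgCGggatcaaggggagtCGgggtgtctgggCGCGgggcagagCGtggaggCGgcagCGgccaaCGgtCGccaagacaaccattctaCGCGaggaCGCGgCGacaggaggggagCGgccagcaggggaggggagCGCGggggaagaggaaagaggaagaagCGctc

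The p53 response element consensus is a pair of adjacent decamers, 20 bases in all and the same on both strands. It was searched in the 250 bases before each annotated start, with up to 3 mismatches and no spacer. A match is a description of letters and not a site of binding. Before P2 of MDM2, 2 matches were found. The first, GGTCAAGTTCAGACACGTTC, lay 94 to 75 bases before the start with 2 mismatches, at chr12:68808923-68808942. The second, AGTTAAGTCCTGACTTGTCT, lay 56 to 37 bases before it with 3 mismatches, at chr12:68808961-68808980. Of 22182 windows before starts of protein-coding genes, 4.04% held a match and 0.203% held 2 or more. A match with 3 mismatches also stood before 1 start of SESN1, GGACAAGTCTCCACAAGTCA at chr6:109009018-109009037. Apart from the overlapping windows of the near-identical P2 starts, these were the matches among 14 windows at 8 members. GADD45A has no entry in the promoter table.

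RNaseH1 peaks lay at all 9 genes, and REXO4 peaks at BBC3 and SESN1 alone. A peak in the gene or 5 kb around it is common: 82.1% of protein-coding genes had an RNaseH1 peak by the same rule and 6.16% had a REXO4 peak. The 9 of 9 is therefore near the background, and the 2 of 9 for REXO4 rests on too few genes to set against it. Among protein-coding genes within 1.5 times a member's length, the share with an RNaseH1 peak ran from 69.4% for genes as short as GADD45A to 93.1% for genes as long as SESN1. The part of gene length in the members' counts was not tested. CDKN2A, BAX and SESN1 had 4 RNaseH1 peaks each, MDM4, BBC3 and PPM1D had 3, and MDM2, CDKN1A and GADD45A had 1. The map of the 9 genes shows a peak over a start at most of them, narrow peaks inside SESN1 and PPM1D, and wider ones inside BBC3 and beyond BAX.

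**Figure D1:**
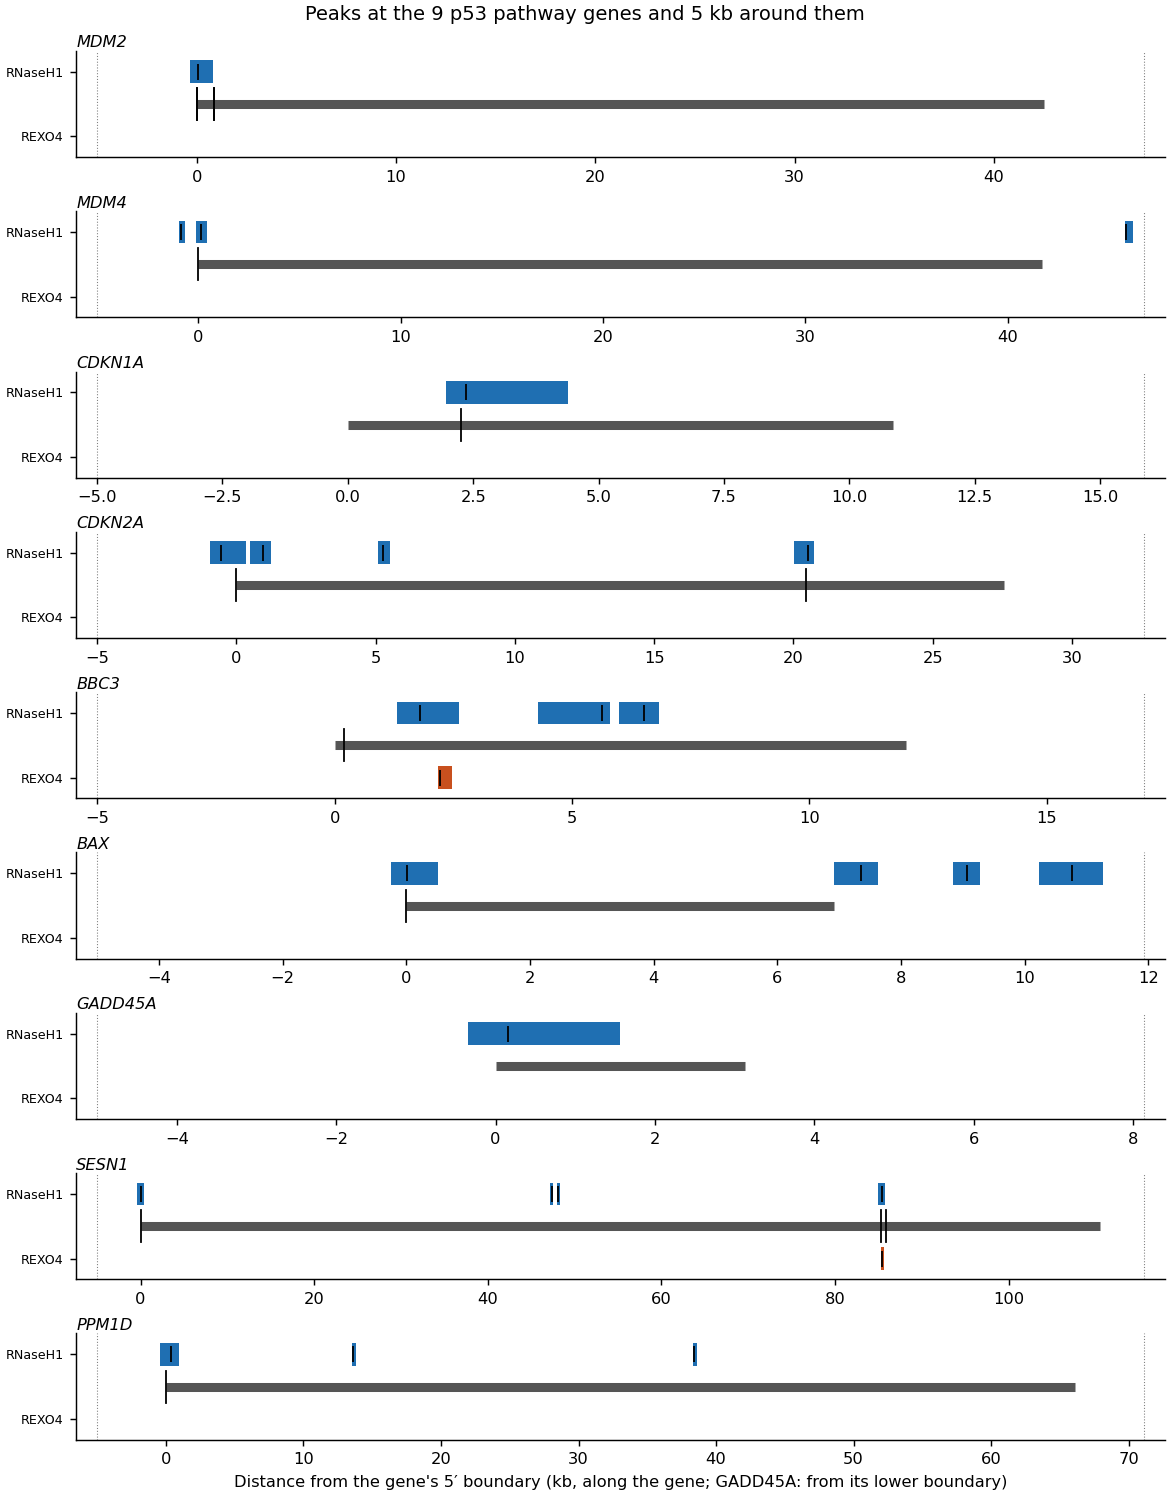
Peaks at each gene and in 5 kb on either side, by distance in kb along the gene. Blue bars are RNaseH1 peaks, orange bars REXO4 peaks, ticks in the bars summits, grey lines genes, black lines annotated starts and dotted lines the limits of the window. RNaseH1 peaks lie over a start at 8 of 9 genes, counting the lower boundary of GADD45A, and REXO4 peaks appear at BBC3 and SESN1 alone.

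At 8 of the 9 genes an RNaseH1 peak lay within 1 kb of an annotated start. The exception was BBC3, which has 1 start in the promoter table. Of protein-coding genes, 67.4% had such a peak. Of the 24 peaks, 10 covered a start and 14 did not. GADD45A has no annotated start in the table used, so its gene boundary stood for the start. Peaks over starts were wide, with a median of 1002 bp (538 to 2425), against 421.5 bp (291 to 1516) for the others. The same held for the whole list, where 9297 peaks over protein-coding starts had a median width of 855 bp and all others 331 bp.

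Fold enrichment, as the authors' peak caller gave it, divides the summit's fragments plus 1 by the expected fragments plus 1. At the members' peaks it ran from 2.53 to 4.98 with a median of 3.15, near the 3.07 of the whole RNaseH1 list. Of the 24 folds, 18 lay within the interquartile range of the list (2.64 to 3.60), 5 above it and 1 below. The peaks rested on 15 to 203 fragments at the summit (median 73.5), from which 95% Poisson intervals follow, for counting error only. The expected fragments were taken as fixed, so their own error is left out and full intervals may be wider. Of these intervals, 19 held the list's median and 5 lay above it. Taking the highest peak of each gene, the median over the 9 genes was 3.82, against 3.52 over all protein-coding genes with a peak. A gene's highest fold can rise with its number of peaks. That number had a median of 3 for the members and 2 for all protein-coding genes, and its part was not tested.

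**Figure D2:**
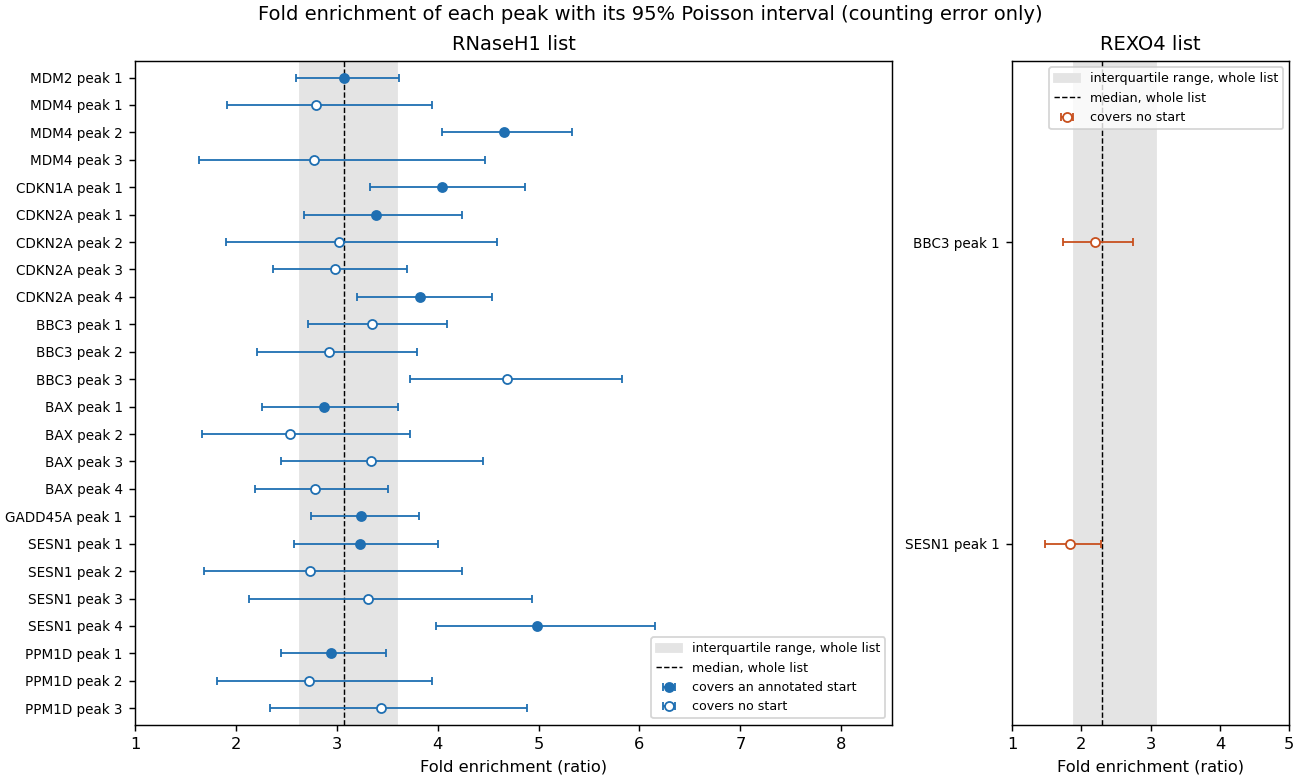
Fold enrichment (ratio) of each peak at the 9 genes, with 95% Poisson intervals for counting error, in the RNaseH1 list (left) and the REXO4 list (right), numbered by genome position within a gene. Filled points cover an annotated start, grey bands are the interquartile range of the whole list and dashed lines its median. Intervals take the expected fragments as fixed, so full intervals may be wider. As drawn, MDM4 peak 2, BBC3 peak 3 and SESN1 peak 4 of the RNaseH1 list have intervals wholly above the band. In that list 19 of 24 intervals hold the median.

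MDM2, the ubiquitin ligase that marks p53 for degradation, had a single RNaseH1 peak, over its promoters. The gene spans chr12:68808172-68850686 on the plus strand, with starts at P1 (68808172 and 68808177) and at P2, 845 bp further on (68809017 and 68809024). The peak ran from 68807854 to 68809010, 1157 bp, with a fold of 3.07 (95% interval 2.59 to 3.62) from 141 fragments against an expected 45.2. It thus covered P1 and ended 7 bp before the first P2 start. Both matches to the p53 response element printed above lay inside it, near its far end. The summit at 68808241 was 64 bp after the nearer P1 start and 691 bp from the first match, so the peak's maximum was at P1. No other peak lay in the rest of the gene, while genes within 1.5 times its length of 42515 bp had a median of 2 RNaseH1 peaks. The fold stood at percentile 50.3 of the list.

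MDM4, a relative of MDM2 that binds p53 and blocks its activity, had 1 of the strongest start peaks among the members. The gene lies at chr1:204516406-204558120 on the plus strand. A narrow peak of 538 bp from 204516278 to 204516815 covered its start with a fold of 4.65 (4.04 to 5.33), at percentile 95.2 of the list. It held the most fragments of the members' peaks, 203 against an expected 42.9, and the highest −log10 q, 65.5. A second peak of 311 bp lay before it, with its summit 865 bp upstream of the start and a fold of 2.79 (1.91 to 3.94). The third, at 204562196 to 204562571 beyond the far end of the gene, overlapped the 5S rRNA pseudogene RNA5SP74 and rested on 15 fragments (fold 2.78, 1.63 to 4.47). The start peak's interval lay above those of the start peaks of MDM2, PPM1D and BAX, and the intervals of MDM4's other 2 peaks held the list's median.

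PPM1D encodes the phosphatase WIP1, which takes phosphates off p53 and its upstream kinases. Its start at chr17:60600193 lay in a peak of 1366 bp from 60599765 to 60601130. The fold was 2.94 (2.45 to 3.49) from 126 fragments against an expected 42.3, and the peak reached from 428 bp before the start to 937 bp after it. Narrow peaks of 326 bp and 291 bp followed 13609 bp and 38386 bp into the gene, with folds of 2.72 (1.81 to 3.94) and 3.43 (2.34 to 4.88). All 3 intervals overlapped, so no order of the folds can be read within PPM1D. The gene is 66088 bp long, and 42.3% of genes of similar length had 3 or more RNaseH1 peaks.

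CDKN1A encodes p21, the inhibitor of cyclin-dependent kinases through which p53 stops the cell cycle. The annotation places the gene at chr6:36676463-36687332 on the plus strand, with the start of the promoter table at 36678714, 2251 bp inside that boundary. The single RNaseH1 peak ran from 36678424 to 36680848. At 2425 bp it was the widest of the members' peaks, at percentile 99.8 of the list by width and 99.5 among peaks over protein-coding starts. Its fold was 4.04 (3.33 to 4.86) from 110 fragments against an expected 26.5, and its summit lay 102 bp after the start. Most of the peak lay on the transcribed side, to 2134 bp after the start, against 290 bp before it. It also overlapped DINOL, a noncoding gene annotated there, and the 2 cannot be told apart. The 250 bases before the start are 76.4% G and C, at percentile 89.6 of all such windows, and no match to the response element was found in them. Sequence further upstream was not searched.

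GADD45A, a stress sensor that binds cell cycle and stress kinases, showed a similar picture on a short gene. The gene spans chr1:67685201-67688334, 3134 bp. Its single peak, from 67684853 to 67686757, was 1905 bp wide (percentile 99.3) and covered the lower boundary and the next 1556 bp. The fold was 3.24 (2.74 to 3.81) from 145 fragments against an expected 44.0. Its interval overlapped that of CDKN1A, so no order of these folds can be read. Strand is not given for GADD45A in the tables used.

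CDKN2A had RNaseH1 peaks at both of its promoters, whose products this line is known not to express. The gene lies at chr9:21967752-21995324 on the minus strand and makes p16INK4A, an inhibitor of CDK4 and CDK6, and ARF from starts 20.5 kb apart. At the p16INK4A start (21974857), a peak of 709 bp from 21974602 to 21975310 had its summit 50 bp after the start. Its fold was 3.39 (2.67 to 4.24) from 75 fragments against an expected 21.4. At the ARF start (21995324), a peak of 1306 bp from 21994963 to 21996268 had a fold of 3.82 (3.20 to 4.54) from 128 fragments against an expected 32.7. Its summit lay 542 bp before the ARF start. A further peak from 21994075 to 21994819 (fold 2.98, 2.37 to 3.70) followed after a gap of 143 bp, with its summit 971 bp after the ARF start.

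The stretch around the ARF start is shared. CDKN2B-AS1, a long noncoding RNA also called ANRIL, starts at 21994791 on the other strand, 533 bp from the ARF start, between the summits of these peaks. LOC124902130 also has an annotated start within 1 kb of each of these peaks. The peaks have no strand, so ARF, CDKN2B-AS1 and LOC124902130 cannot be told apart there. A narrow peak of 414 bp at 21989819 to 21990232, inside CDKN2A, had a fold of 3.02 (1.90 to 4.59) from 20 fragments. It also overlapped LOC124902130. Among genes of similar length, 17.6% had 4 or more RNaseH1 peaks. No REXO4 peak lay near CDKN2A, the nearest being 11355 kb away.

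By position in their list, the CDKN2A promoter peaks did not stand apart from those of the other members. The folds at the p16INK4A and ARF starts were at percentiles 64.9 and 81.4 among the 9297 peaks over protein-coding starts. CDKN1A (86.4), MDM4 (94.5) and the distal start of SESN1 (96.5) stood higher than both. GADD45A (57.4), the middle start of SESN1 (56.7), MDM2 (47.9), PPM1D (39.8) and BAX (36.1) stood lower than both. The intervals of all these start peaks overlapped those of both CDKN2A start peaks, so no order of the folds can be read. The neighbour CDKN2B, which encodes p15INK4B, had a peak over its start with a fold of 5.32 (4.19 to 6.66) from 74 fragments against an expected 13.1. That peak also lay inside CDKN2B-AS1, so the genes cannot be told apart. MTAP, a gene of methionine salvage on the other side, had 4 peaks with a highest fold of 5.07 (3.98 to 6.37), just before its start. DMRTA1, beyond CDKN2B-AS1, had none. Whether the p16INK4A and ARF promoters are methylated or transcribed in these cells was not measured in the files used here.

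**Figure D3:**
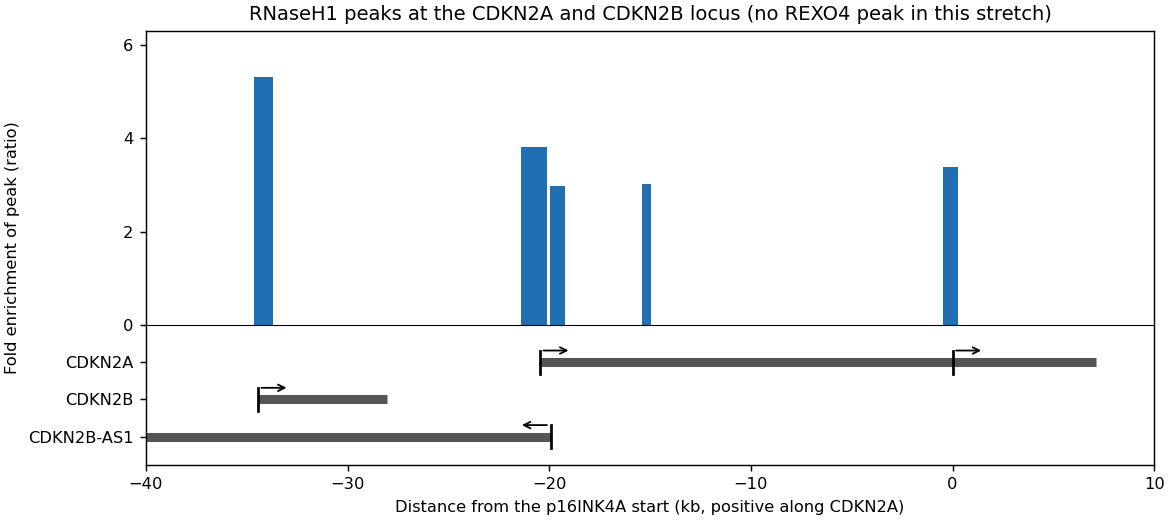
RNaseH1 peaks at CDKN2A, CDKN2B and CDKN2B-AS1 by distance in kb from the p16INK4A start, positive along CDKN2A, with fold enrichment (ratio) as bar height. Arrows mark annotated starts and their direction, and CDKN2B-AS1 runs on beyond the left edge. Peaks stand over the p16INK4A start (3.39), around the ARF and CDKN2B-AS1 starts (3.82 and 2.98) and over the CDKN2B start (5.32).

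The base composition of the CDKN2A promoters differed. Both windows printed above are 66.8% G and C. The 250 bases before the ARF start carry many more G than C along the gene, with a skew of 0.449 (G minus C, over G plus C), at percentile 99.2 of all windows. Before the p16INK4A start the skew was 0.162 (percentile 82.2). Before P1 of MDM2 it was −0.172 (percentile 12.9) and before P2 0.176. A surplus of G on the strand not used as template is a known feature of many R-loop regions, but it is described here for the sequence before the starts only, and windows with skews of either sign held peaks.

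BBC3 encodes PUMA, a BH3-only activator of apoptosis and a direct p53 target. It was the only member without an RNaseH1 peak within 1 kb of its annotated start, and 1 of 2 with a REXO4 peak. The gene lies at chr19:47220824-47232860 on the minus strand, with the start of the promoter table at 47232667. That table gives 1 start for BBC3, so a peak at any other start of the gene would count here as away from a start. All 3 RNaseH1 peaks lay inside the gene. The nearest to the start, from 47230246 to 47231551, had its summit 1602 bp after it and a fold of 4.69 (3.72 to 5.83), from 79 fragments against an expected 16.1. Further in, peaks of 1516 bp and 842 bp had folds of 2.92 (2.20 to 3.79) and 3.35 (2.71 to 4.09). The peak nearest the start had the highest fold, although both other intervals met its own. Of genes of similar length, 26.3% had 3 or more peaks.

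The REXO4 peak of BBC3 lay within the first of these, from 47230395 to 47230685, with all of its 291 bp shared. Its fold in the REXO4 list was 2.20 (1.74 to 2.75), from 76 fragments against an expected 34.0, at percentile 46.2 of that list, with a −log10 q of 5.69. The summits were 423 bp apart, the REXO4 summit lying further into the gene. The window before the start of BBC3 is poor in CpG, with 4 CpG dinucleotides and an observed over expected ratio of 0.278, the lowest of the members.

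BAX, the pore former of mitochondrial apoptosis, had its start covered. The gene lies at chr19:48954875-48961798 on the plus strand, and the peak from 48954623 to 48955387 had its summit 15 bp after the start. The fold was 2.87 (2.26 to 3.61) from 72 fragments against an expected 24.4, the lowest of the members' start peaks, within the interquartile range of the list. A peak of 717 bp reached over the far end of the gene at a fold of 2.53 (1.66 to 3.72), and 2 lay beyond it. Of these, the peak from 48965113 to 48966148 (2.79, 2.18 to 3.50) lay over the start of FTL, the ferritin light chain gene, so it belongs to the window rather than to BAX. With the gene taken alone, BAX had the start peak and the one across its far end.

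SESN1 encodes sestrin 1, a stress protein that restrains mTORC1. It is the longest member, 110538 bp at chr6:108984309-109094846 on the minus strand, and has annotated starts at 109094846, 109009552 and 109008988. The distal start lay in a peak from 109094420 to 109095266 with a fold of 4.98 (3.98 to 6.15), the highest among the members, from 84 fragments against an expected 16.1. Its summit was 2 bp before the start, and CEP57L1 also starts there, so the genes cannot be told apart. A peak from 109009063 to 109009908 covered the middle start at a fold of 3.23 (2.57 to 4.00). Between the starts lay 2 narrow peaks of 329 bp and 388 bp with folds of 2.73 (1.68 to 4.24) and 3.31 (2.13 to 4.93), on 18 and 22 fragments. These 2 and the peak at the middle start also overlapped ARMC2, a gene annotated there, so the genes cannot be told apart. The distal start peak and the one at the middle start had intervals that barely met.

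The REXO4 peak of SESN1 lay between the middle start and the last start, which are 564 bp apart. It ran from 109009220 to 109009519, and all of its 300 bp lay in the RNaseH1 peak, with the summits 24 bp apart. This REXO4 peak also overlapped ARMC2, so it cannot be credited to SESN1 alone. Its fold was 1.84 (1.47 to 2.28), from 82 fragments against an expected 44.1, at percentile 22.0 of the REXO4 list, and its −log10 q of 3.16 was among the weaker values named here. The match to the p53 response element before the last start lay 26 bp outside the RNaseH1 peak. SESN1 was the 1 member of 9 with REXO4 enrichment less than 1 kb from a start, against 4.02% of protein-coding genes.

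Both REXO4 peaks at the members thus lay wholly within RNaseH1 peaks. Over the whole REXO4 list 71.5% of peaks overlapped an RNaseH1 peak, so 2 of 2 is no departure from the list. Seen from the other side, 2 of the 24 RNaseH1 peaks overlapped a REXO4 peak, against 2.03% of the whole list. Of the members' 3 highest folds, at the distal start of SESN1 (4.98), in BBC3 (4.69) and at the start of MDM4 (4.65), the peak in BBC3 was shared. The other 7 genes had their nearest REXO4 peak between 197 kb (MDM2) and 11355 kb (CDKN2A) away. The REXO4 list is short, and a gene without a peak in it may still be bound below the authors' threshold.

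Over all protein-coding promoters, the share with an RNaseH1 peak differed between classes of CpG content. Of the 22182 windows of 250 bases before a start, 56.3% overlapped an RNaseH1 peak, and 13 of the 14 windows at the members did. With an observed over expected CpG ratio under 0.2 the share was 2.79%. Between 0.2 and 0.4, the class of the BBC3 window, which had no peak, it was 10.4%, and between 0.4 and 0.6 it was 40.4%. Between 0.6 and 0.8 it was 75.3%, between 0.8 and 1 it was 86.7%, and between 1 and 1.2 it was 88.5%. The other 13 windows of the members lay in these 3 classes. At 1.2 or more, a class of 221 promoters with no member, the share was 84.2%. The 4 windows of MDM2 overlap in pairs and share 1 peak, and 2 windows of SESN1 share a peak, so they are not independent. The part of read mapping, amplification or GC content in this pattern was not tested.

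**Figure D4:**
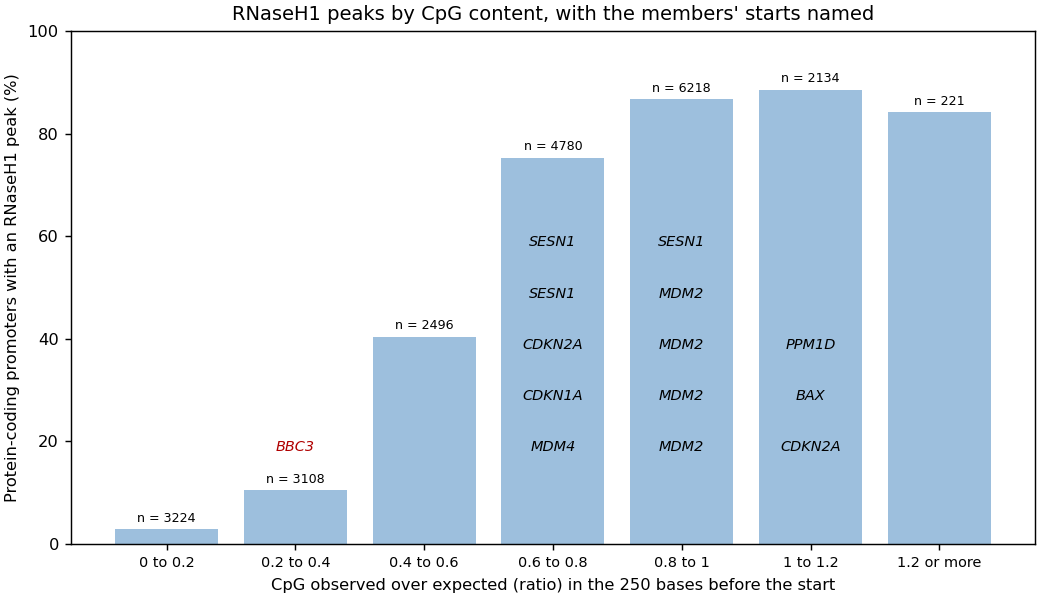
Share of protein-coding promoters (%) whose 250 bases before the start overlap an RNaseH1 peak, by observed over expected CpG ratio, with the number of promoters above each bar. Names place the members' windows in their class by CpG ratio, and their height has no meaning. The window of BBC3 (red) had no peak and lies in the class at 10.4%, and the 13 with a peak lie in classes at 75.3% to 88.5%.

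The wider pathway was read from a list of 46 further p53 regulators and targets, drawn from general knowledge of the pathway. RNaseH1 peaks lay at 45 of the 46 (97.8%), and within 1 kb of a start at the same number, against 82.1% and 67.4% of all protein-coding genes. REXO4 peaks lay at 4 (8.70%), against 6.16%. The median of each gene's highest RNaseH1 fold was 3.52, the same as over all protein-coding genes with a peak. The list was not matched on expression, length or CpG content.

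All 11 sensors and regulators of p53 had an RNaseH1 peak in the gene or its 5 kb. The kinase gene HIPK2 was highest at 4.90 (4.01 to 5.93), in a peak that also overlapped TBXAS1. The repair scaffold TP53BP1 had 4.64 (3.64 to 5.83) at its start, next to MAP1A. The checkpoint kinase CHEK1 had 4.03 on 15 fragments, with an interval (2.37 to 6.49) that held the list's median. All 7 genes of cell cycle arrest had a peak. CDKN2B led, with the peak that also lay inside CDKN2B-AS1. The polo-like kinase PLK3 followed at 3.97 (3.28 to 4.76), then cyclin G1 (CCNG1) at 3.59 (2.17 to 5.62), whose interval also held the median. The peaks of CHEK1 and CCNG1 lay inside those genes and covered no start.

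Among 10 apoptosis genes, all with a peak, the apoptosome gene APAF1 had 5.67 (4.73 to 6.74) over its start, where IKBIP also starts. TP53I3, an oxidoreductase gene, had 5.38 (4.36 to 6.57), and the nuclease gene AEN had 4.51 (3.03 to 6.49) on 27 fragments. The TP53I3 peak also overlapped FAM228B. The AEN peak lay inside the gene, with its summit 6325 bp from the nearest start. All 10 repair and metabolism genes had a peak by the rule. The highest fold, 4.56 (3.73 to 5.52) for the glutaminase gene GLS2, came from a peak outside that gene, 19664 bp from its start and at the start of SPRYD4, so it belongs to the window rather than to GLS2. TIGAR, a brake on glycolysis, had 4.28 (2.55 to 6.79) on 16 fragments, and the ferredoxin reductase gene FDXR had 3.87 (2.77 to 5.28). The intervals of TIGAR and FDXR both held the list's median. The TIGAR peak lay inside the gene and covered no start. The FDXR peak crossed a boundary of the gene, with its summit outside the gene and 6398 bp from the nearest start.

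Of 8 other targets, 7 had a peak. The cytokine gene GDF15 had 5.45 (4.33 to 6.77), the RNA-binding protein gene ZMAT3 4.30 (3.51 to 5.20) and SPATA18 4.01 (2.81 to 5.55). The GDF15 peak lay inside the gene and covered no start. Overlapping intervals leave the order within these lists unsettled. EDA2R, a TNF receptor family gene on the X chromosome, had no peak in either list.

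REXO4 peaks in the wider list lay at USP7, HIPK2, FDXR and TP53INP1. At TP53INP1, an autophagy and apoptosis factor, the REXO4 peak of 642 bp lay wholly in an RNaseH1 peak over a boundary of the gene, where NDUFAF6 also lies, with summits 4 bp apart and a REXO4 fold of 2.69 (2.25 to 3.18). At HIPK2 the REXO4 peak of 928 bp also crossed a boundary, reaching TBXAS1, at 2.17 (1.78 to 2.61), and its summit was 17 bp from an RNaseH1 summit. At USP7, the protease that removes ubiquitin from p53 and MDM2, the REXO4 fold was 1.66 (1.42 to 1.91) on 179 fragments, with 207 bp shared. FDXR had the highest REXO4 fold of the pathway, 4.04 (2.96 to 5.39) from 44 fragments against an expected 10.1. That peak, from 74861485 to 74861953 on chromosome 17, lay just outside the gene in GRIN2C and was the only REXO4 peak here that overlapped no RNaseH1 peak.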

How the data were processed

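Flag ChIP-seq of 12 U2OS libraries is described in the labels, and 2 peak lists were used. Per the submitters' processing notes, peaks were called with MACS2 2.1.0.20150731 on hg38. The sources used here do not say whether replicates were pooled, or against which control and threshold peaks were called. Fold enrichment, −log10 p and −log10 q are the authors' deposited values, and the largest q was 0.179 (REXO4) and 0.198 (RNaseH1). Fold was used only within a list. Library depth is unknown.

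Members and lists were chosen with earlier results of these data known. Of 59792 genes in the RefSeq table, 58957 with positions on the main chromosomes were kept. Starts came from the promoter table, and 4021 of 19862 protein-coding genes without one were given either gene boundary. Overlap was at least 1 bp. Fragments and expected pileup were solved from fold and p as a whole number, within 0.05, of fragments with a Poisson tail. All 26 member peaks gave whole numbers, and the solver was tested on simulated data. Intervals are exact Poisson (95%) for the summit's fragments, with the expected pileup taken as fixed. The named genes were all 9 members and, per wider list, the 3 of highest RNaseH1 fold, those with a REXO4 peak and those without an RNaseH1 peak. The search for the p53 response element with mismatches was added after the data were seen. No exon annotation was used. The window, q threshold, summit rule and overlap rule were varied. Python 3.11.15, NumPy 2.4.6, SciPy 1.17.1 and pandas 2.3.3 were used.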

Additional observations from a re-analysis of the deposited data

How the results depend on the processing

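Of 57 recomputed values, 53 stayed within 1.5 times the reported one, and 4 did not. When peaks of either list needed a q of 1e-05 or less, 1 member kept a REXO4 peak, with 1 REXO4 peak and 1 shared RNaseH1 peak at the members, since the peak at SESN1 falls out and that at BBC3 stays. With shared peaks defined by summits within 200 bp, 1 RNaseH1 peak was shared, at SESN1, since the BBC3 summits are 423 bp apart. RNaseH1 peaks were found at 9 of 9 members under every window, q threshold and summit rule tried, and their number ran from 17 (q of 1e-05 or less) to 31 (10 kb window). The wider window could not lower the count of members, and q limits of 0.05 and 0.01 removed none of the 24 peaks. At 1e-05, 70.7% of protein-coding genes had an RNaseH1 peak and 3.16% a REXO4 peak. Within 2500 bp of a start all 9 members had a peak, BBC3 included, against 71.2% of protein-coding genes. Leaving out replicates could not be done, since no value per library was used. No paired analysis was possible because the lists hold no value per replicate. Counting error limits the narrow peaks away from starts, which rest on as few as 15 fragments.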

Other observations

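Over all protein-coding promoters, the 897 windows with a match to the p53 response element overlapped an RNaseH1 peak less often than the 21285 without one, 44.0% against 56.8%. Windows with a match were poorer in CpG, with a median observed over expected ratio of 0.515 against 0.716. Among windows with a ratio of 0.6 or more, the shares were 83.3% of 407 and 82.8% of 12946. These shares are descriptions with no test, and windows of alternative starts of 1 gene overlap.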
